A study of Mus musculus with 15 samples.

Results

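Chromosome 13 of the mouse carries Ptch1, the receptor that binds Sonic hedgehog (Shh) and holds the pathway off in its absence, together with Gli3, a transcription factor of the same pathway. Granule neuron progenitors, the cells that make Atoh1 in the outer layer of the young cerebellum, divide in response to Shh, and medulloblastomas of the Shh type arise from them. An array reads the RNA of each gene separately, so neighbouring genes whose levels differ together between samples can be seen by setting the readings out in map order.

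The genes described here were the 659 genes, of 17097 measured, that were assigned to chromosome 13 and ordered by their start in the GRCm38.p6 assembly. They were read by 1134 probe sets. A gene was represented by its probe set with the highest mean over the 15 arrays, and 275 of the genes had several. Of the 659 genes, 367 had a mean above background and 292 did not, where background was a log2 signal of 4.77, the 95th percentile of 23 control probe sets that match no mouse transcript. Just inside that limit stood Gm9776 at 4.77 and Trpc7 at 4.78, and just outside it Hfe at 4.77 and F13a1 at 4.76. The chromosome was chosen by its low values in the Shh tumour arrays against the GFP-positive arrays, so that contrast is described below without a test.

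The series held 15 arrays in 5 groups of 3. GFP-positive and GFP-negative cells were sorted by flow cytometry from cerebella of Cdkn2c-/-, Trp53-/-, Atoh1-GFP mice at postnatal day 6, which is how the series' design describes them, although the sample labels call both a spontaneous tumour. Shh tumours arose spontaneously in Cdkn2c-/-; Trp53 Fl/Fl; Nestin-Cre mice, in which Cre is made in neural progenitors. For the Myc primary tumours, cerebellar cells of the first genotype were infected with Myc and put into the cortex of nude mice, which lack T cells, and Myc secondary tumours grew from transplanted cultures of spheres of the primary ones. All groups thus lacked Cdkn2c in the germline, and Trp53 was deleted in the germline or by Cre. Tumour cells were dissociated and passed through a Percoll gradient, and the Myc tumours can hold cells of the nude mouse host. The labels do not say that the 3 samples of a group came from separate animals, so the p-values below measure only the spread between these samples.

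Values are log2 signals, and a difference of a single array is its log2 signal minus the mean of the 3 GFP-positive arrays. For a GFP-positive array the other arrays of the group served as the reference. A median of such differences over 9736 autosomal genes above background was 0.12, 0.09 and 0.12 in Shh 1, 2 and 3, and it ran from -0.40 to 0.17 over the other arrays, with GFP-negative 3 the lowest. The lowest correlation between arrays of a group was 0.980 in Shh, 0.995 in GFP-positive, 0.963 in GFP-negative, 0.970 in Myc primary and 0.962 in Myc secondary. Markers of granule neuron progenitors fitted the label of the Shh tumours and the GFP-positive cells, with none of the 7 below background in either, while 2 of the 7 were below background in each GFP-negative array and 1 to 3 in the Myc tumours. Microglia and macrophage markers stood 1.85 to 2.52 above the GFP-positive mean in the Shh arrays and 5.92 to 7.10 above it in the GFP-negative arrays.

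The sequences shown first are promoters, that is the 250 bases before a start site listed by RefSeq (GRCm38.p6). They belong to the genes at which the lower stretch begins in each Shh array, to its last gene in the mean of the 3 arrays, and to Ptch1 inside it. The beginning genes mark where on the map the readings change, and every CG pair is in capitals. Hivep1, a zinc finger transcription factor, begins the stretch in Shh 1 (chr13:42051771-42052020, plus strand, 41 CG pairs). Spin1, a reader of histone methylation, begins it in Shh 2 (chr13:51100630-51100879, plus strand, 42 CG pairs, 1 of 3 promoters listed). Faf2, which acts in protein degradation at the endoplasmic reticulum, begins it in Shh 3 (chr13:54621534-54621783, plus strand, 21 CG pairs). Ptch1 is read from the minus strand (chr13:63565736-63565985, 41 CG pairs), as is the zinc finger gene Zfp131 near the end of the chromosome (chr13:119790733-119790982, 29 CG pairs, 1 of 2 promoters listed). A listed start site need not be the outermost one of the gene. That of Faf2 is, while those of Hivep1, Zfp131, Spin1 and Ptch1 lie 122, 745, 2946 and 7725 bases inside the outer end of the gene's span, so the windows of Zfp131, Spin1 and Ptch1 fall within the gene.
Hivep1: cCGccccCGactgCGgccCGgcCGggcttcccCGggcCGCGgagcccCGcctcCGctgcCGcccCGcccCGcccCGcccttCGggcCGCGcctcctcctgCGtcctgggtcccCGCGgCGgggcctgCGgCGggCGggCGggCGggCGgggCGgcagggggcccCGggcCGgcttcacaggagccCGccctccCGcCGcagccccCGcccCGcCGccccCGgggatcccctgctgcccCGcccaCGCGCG
Spin1: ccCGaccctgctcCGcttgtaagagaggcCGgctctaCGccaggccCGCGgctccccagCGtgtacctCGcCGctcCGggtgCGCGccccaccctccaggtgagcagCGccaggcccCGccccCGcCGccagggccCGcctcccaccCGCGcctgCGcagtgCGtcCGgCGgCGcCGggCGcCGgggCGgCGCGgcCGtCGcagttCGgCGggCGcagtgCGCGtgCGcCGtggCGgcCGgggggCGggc
Faf2: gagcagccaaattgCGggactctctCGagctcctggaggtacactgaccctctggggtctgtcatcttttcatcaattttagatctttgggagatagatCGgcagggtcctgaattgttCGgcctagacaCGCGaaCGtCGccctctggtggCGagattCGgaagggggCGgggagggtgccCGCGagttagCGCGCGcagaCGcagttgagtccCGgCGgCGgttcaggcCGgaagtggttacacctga
Ptch1: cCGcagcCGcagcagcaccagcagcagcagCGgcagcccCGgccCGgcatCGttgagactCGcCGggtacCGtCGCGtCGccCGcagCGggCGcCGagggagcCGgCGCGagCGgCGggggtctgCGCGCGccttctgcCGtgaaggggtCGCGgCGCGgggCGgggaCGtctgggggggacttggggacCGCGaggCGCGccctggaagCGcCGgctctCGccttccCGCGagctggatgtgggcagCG
Zfp131: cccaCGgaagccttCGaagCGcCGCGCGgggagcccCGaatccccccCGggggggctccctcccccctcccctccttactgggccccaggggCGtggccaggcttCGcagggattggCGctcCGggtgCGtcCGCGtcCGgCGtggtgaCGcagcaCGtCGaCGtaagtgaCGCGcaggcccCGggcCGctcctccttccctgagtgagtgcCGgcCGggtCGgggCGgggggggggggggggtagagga

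Over promoters of the 226 genes of the lower stretch, 205 matched a RefSeq entry and held a median of 19 CG pairs in 250 bases, against 17 over 118 matched chromosome 13 promoters outside it and 17 over 7594 promoters of other autosomal genes above background. The letters TATAAA, searched on both strands, were found in 5.37% of the promoters inside, 11.0% of those outside on the chromosome and 5.83% of those on the other autosomes, beside 13% of all 27025 promoters listed. The Gli motif TGGGTGGTC, also searched on both strands, was found in 1 promoter inside, 1 outside and 10 on the other autosomes, and in 57 of all promoters. None of the 5 promoters printed held either motif.

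In the Shh tumours the median of the first section of the chromosome was near or above the reference, and those of the last sections were well below it. The chromosome was cut in map order into 4 sections of equal length, 30.1 Mb each, which held 69, 128, 70 and 100 genes above background. In section 1 the median differences of Shh 1, 2 and 3 were 0.02, 0.25 and 0.25. In section 2 they were -0.49, -0.02 and -0.02, with Shh 1 alone clearly below the reference. In section 3 they were -0.60, -0.69 and -0.46, and in section 4 -0.68, -0.80 and -0.63. All 3 arrays were low in sections 3 and 4. The mean over the 3 arrays was 0.17 ± 0.13 (SD, n = 3) in section 1, -0.18 ± 0.27 in section 2, -0.58 ± 0.12 in section 3 and -0.70 ± 0.08 in section 4. Centring each array on its median moved every Shh median by -0.29, so that section 1 read -0.12. With the genes below background kept in, section 3 read -0.24 and section 4 -0.36. In bulk samples, fewer cells of a type and less RNA per cell cannot be told apart, and this holds for every level below.

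**Figure D1:**
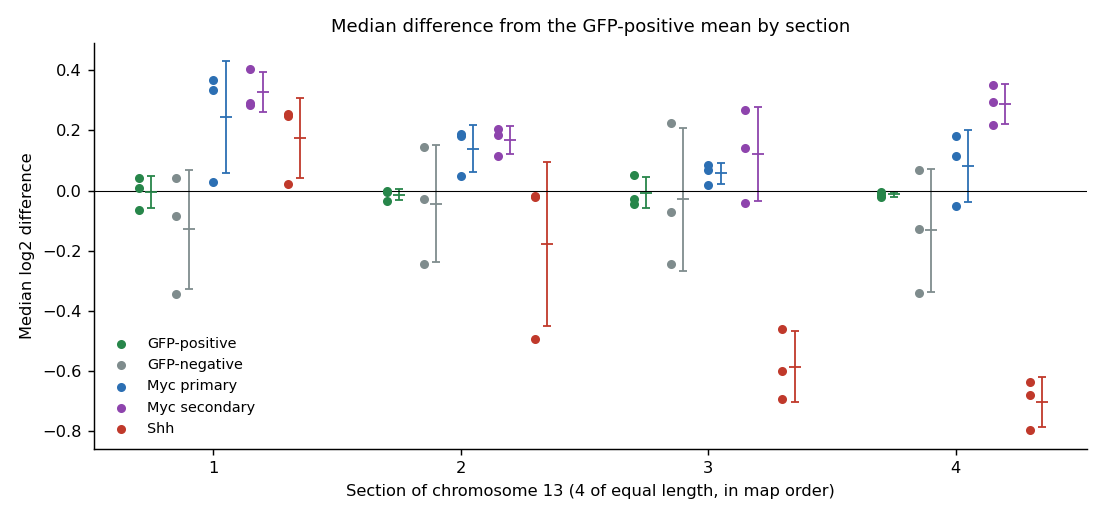
Each point is the median log2 difference of 1 array from the GFP-positive mean over the genes of 1 of the 4 sections of chromosome 13, and bars give the mean and SD of the 3 arrays of a group. The Shh arrays sit between -0.80 and -0.63 in section 4, below the arrays of the 4 other groups.

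The other groups showed no step of this size between sections. Over the whole chromosome the Shh arrays read -0.52, -0.43 and -0.25, the GFP-negative arrays 0.13, -0.06 and -0.30, the Myc primary arrays 0.02, 0.22 and 0.18, and the Myc secondary arrays 0.18, 0.17 and 0.24. The Shh arrays thus overlapped with GFP-negative 3 alone, an array whose autosomal median was -0.40. In section 4 the means were -0.13 ± 0.20 (SD, n = 3) in GFP-negative, 0.08 ± 0.12 in Myc primary and 0.29 ± 0.07 in Myc secondary arrays. The Shh and Myc differences share the GFP-positive arrays as their reference. With the GFP-negative arrays as the reference in place of the GFP-positive ones, section 4 read -0.51, -0.65 and -0.49 in Shh 1, 2 and 3, and with the Myc primary arrays it read -0.80, -0.90 and -0.85.

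Among the 19 autosomes, chromosome 13 had the lowest median in Shh 2 and Shh 3 and the second lowest in Shh 1. Chromosome 16 read -0.65 in Shh 1 and -0.41 in Shh 2, close to chromosome 13 in the same arrays, and chromosome 7 read -0.19 in Shh 3. Section 4 of chromosome 13 ranked second, first and first from the lowest of 76 such sections of the autosomes in Shh 1, 2 and 3.

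**Figure D2:**
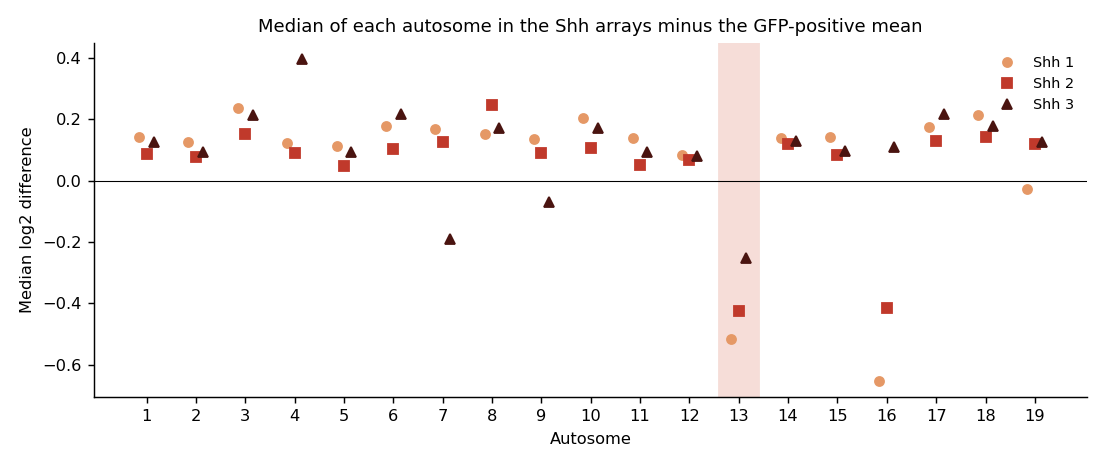
Median log2 difference from the GFP-positive mean over the genes above background of each autosome, for the 3 Shh arrays, with chromosome 13 shaded. Chromosome 13 lies at -0.52, -0.43 and -0.25, and chromosome 16 is also low in Shh 1 and Shh 2.

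To find where the lower levels begin and end, the single run of at least 10 genes was sought whose own median, with the array's autosomal median outside it, left the least total deviation. On the mean of the 3 Shh arrays it ran from Spin1 (chr13:51097934-51152562) to Zfp131 (chr13:119765186-119791477), 226 genes over 68.7 Mb. Its median was -0.66 inside and 0.18 outside, beside an autosomal median difference of 0.10. The ratio to the GFP-positive reference was thus 0.591 times as high inside as at the autosomal median. Inside, 206 genes (91.2%) were below the autosomal median, against 42.6% of the genes outside. Only Gm46390 lay after it, a predicted gene that overlaps Zfp131 on the map and differed by -0.15, -0.22 and 0.003 in Shh 1, 2 and 3. The interval took away 33.4% of the deviation of the mean of the 3 Shh arrays. Taken singly, Shh 1, 2 and 3 had best intervals that took away 38.0%, 32.2% and 24.1%. The best interval of each of the other 12 arrays took away 1.49% to 4.46%.

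In all 3 arrays the interval ran on until only 1 or 2 genes above background were left, so no end before that of the chromosome was found. The beginning differed between the arrays. Shh 1 was lower from Hivep1 at 42.1 Mb to Hmgcs1 at 119.7 Mb, over 262 genes with a median of -0.66. Shh 2 was lower from Spin1 at 51.1 Mb to Zfp131 at 119.8 Mb, over 226 genes with a median of -0.76. Shh 3 was lower from Faf2 at 54.6 Mb to Zfp131, over 209 genes with a median of -0.61. When each array was instead divided into 2 to 6 stretches, a choice made after seeing the data, the boundary at Hivep1 in Shh 1 and the boundary at Spin1 in Shh 2 were found at every number of stretches, while Shh 3 changed at Sptlc1 (53.3 Mb) in place of Faf2. The last lower stretch then ran to Gm46390, the last gene, in each of them. With 4 to 6 stretches Shh 1 also had the separate lower run from Tbce to Yae1d1.

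**Figure D3:**
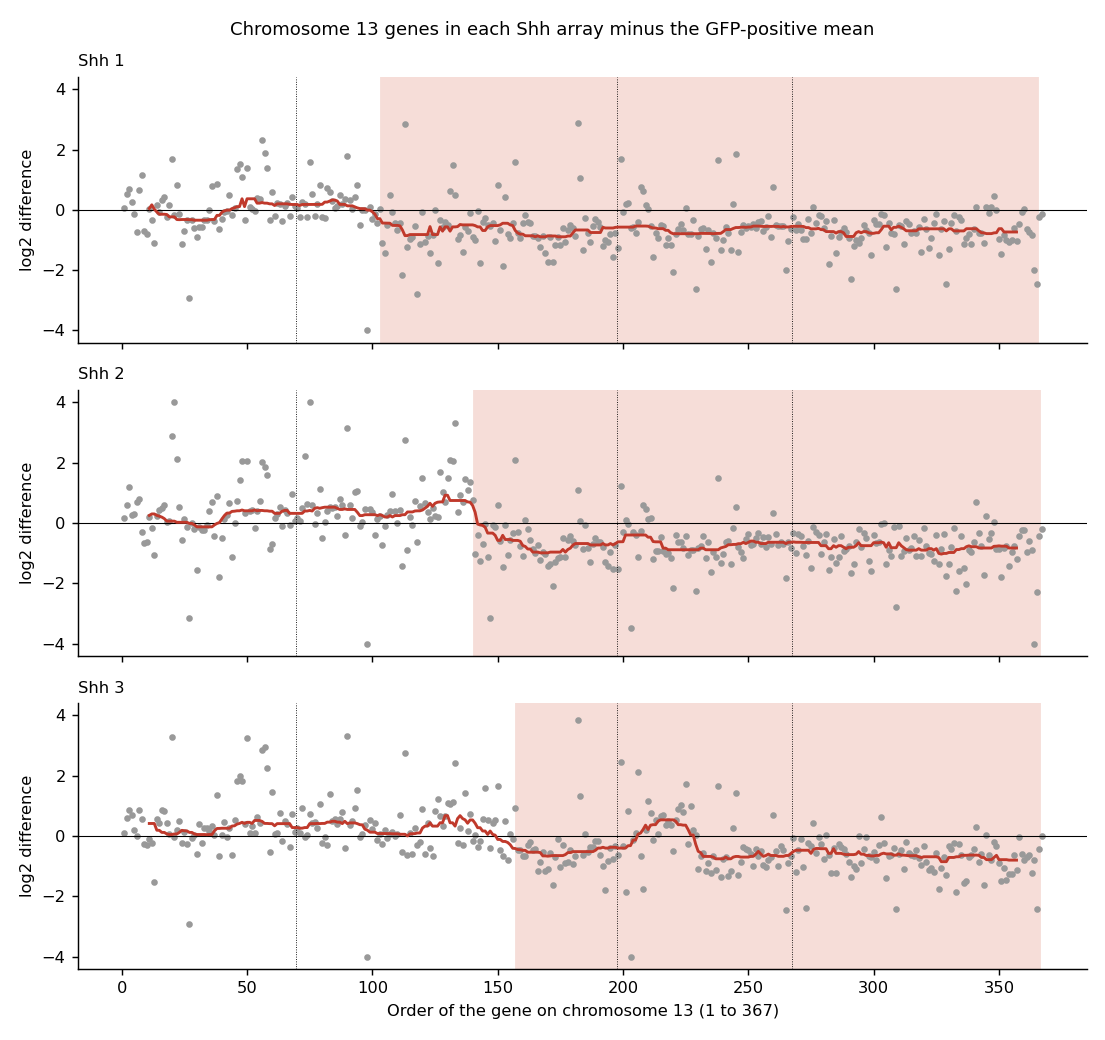
Log2 difference from the GFP-positive mean of each chromosome 13 gene above background (grey points, drawn at 4 or -4 where larger), in map order, with the running median of 21 genes (red) and that array's interval (shaded), for Shh 1, 2 and 3. Dotted lines part the sections; the running median drops at a different gene in each array and in Shh 3 comes back above 0 for a time inside the interval.

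The genes at the beginning showed how sharp it was. Fbxw17, an F-box gene and the last before the interval, differed from the reference by -0.91, 0.74 and -0.15 in Shh 1, 2 and 3. Iars, the next gene before it and an aminoacyl-tRNA synthetase, differed by -0.10, 1.37 and 0.75. Spin1, less than 1 Mb further on, read 9.90, 9.87 and 10.92 in the Shh arrays and 10.88, 10.87 and 10.92 in the GFP-positive arrays, so that Shh 1 and 2 lay about 1 unit below all GFP-positive arrays and Shh 3 did not. S1pr3, a receptor for sphingosine-1-phosphate that was below background in these arrays, differed by -0.05, -0.41 and -0.35. Cks2, a small partner of cyclin-dependent kinases, read 9.84, 10.34 and 11.42 against 11.71, 11.73 and 11.36, again with Shh 3 among the GFP-positive arrays. At the end, Hmgcs1, an enzyme of cholesterol synthesis, read 6.19, 6.34 and 6.22 against 8.97, 8.58 and 8.34, with no overlap. Zfp131 read 9.0, 8.81 and 8.81 against 9.24, 9.24 and 9.25, also with no overlap.

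The genes between the beginning of Shh 1 and that of Shh 2 differed between the 3 tumours. The stretch was marked off after its values against the reference cells were seen, so the counts over it are descriptions. These 37 genes, from Hivep1 to Fbxw17, had a median of -0.67 in Shh 1, 0.55 in Shh 2 and 0.17 in Shh 3. Set directly against Shh 1, 35 of the 37 were higher in Shh 2, by a median of 1.31, and 34 were higher in Shh 3, by a median of 0.88. The RNA-binding protein gene Rbm24, picked out after its values were seen, had signals of 4.69, 6.84 and 7.20 in Shh 1, 2 and 3. Over the 103 genes before Hivep1 the same differences were 0.19 and 0.31.

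Shh 2 also had a raised stretch just before its lower one. That stretch was marked off by its high values in Shh 2, so the count over it is a description. All 14 genes from Ptpdc1 to Fbxw17 (48.6 to 50.4 Mb) were above the autosomal median of Shh 2, with a median of 1.22. The same genes had a median of 0.68 in Shh 3 and of -0.52 in Shh 1. Fgd3, which activates a small GTPase, read 7.72 in Shh 2 and 6.84 in Shh 3, against 4.91 in Shh 1 and 4.54, 4.38 and 4.30 in the GFP-positive arrays. Nol8, a nucleolar protein, differed by 1.08, 0.17 and -0.71 in Shh 2, 3 and 1. Fgd3 and Nol8 were likewise picked out after their values were seen. Across the step from Fbxw17 to Spin1, Shh 2 went from 0.74 to -1.02 between neighbouring genes.

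Ptch1 (chr13:63508328-63573460) lay inside the interval of all 3 arrays and had a different reading in each. The GFP-positive arrays read 10.68, 10.52 and 10.30, the GFP-negative arrays 11.05, 10.53 and 10.66, the Myc primary arrays 9.17, 9.26 and 9.56 and the Myc secondary arrays 10.15, 9.65 and 9.55. Shh 1, 2 and 3 read 9.90, 7.03 and 4.56. Shh 2 and 3 were below every array outside the group, with Shh 3 below background, whereas Shh 1 lay among the Myc arrays. The differences were -0.60, -3.47 and -5.94. The other probe set of Ptch1 was below background in the GFP-positive and Shh arrays and gave no second reading.

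The genes around Ptch1 were less low than the rest of the interval. The 13 genes from Ctla2a to Zfp369 (60.9 to 65.3 Mb) had medians of 0.02, -0.05 and 0.10 in Shh 1, 2 and 3. Their bounds were marked off by the values of Shh 2. The same genes had medians of 0.55, 0.18 and 0.06 in the GFP-negative arrays. They read 0.23, 0.44 and 0.69 in the Myc primary and -0.14, 0.49 and 0.60 in the Myc secondary arrays. Some were weak in GFP-positive cells, such as Fancc with a mean of 5.26, and others strong, such as Ctsl with 9.51. In Shh 3, Aopep, an aminopeptidase gene before Ptch1 on the map, read 4.54 against 6.36, 6.27 and 6.5 in the GFP-positive arrays, and Prxl2c, further along, read 4.02 against 5.76, 5.76 and 5.82. Both were below background there, and on these probe sets neither was low in Shh 1 or 2. The probe sets of Prxl2c disagree, since the other differed by -0.68, -0.36 and -0.99 in Shh 1, 2 and 3. The other 3 probe sets of Aopep had GFP-positive means below background. Between Ptch1 and Prxl2c, the hyaluronan-binding gene Habp4 had signals of 5.79, 5.09 and 8.33 in Shh 1, 2 and 3, and the GFP-positive arrays read 6.10, 6.25 and 6.27. These neighbours were named after their values were seen.

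In Shh 3 the interval was broken by a stretch that was marked off by its high values in that array. Counts over it are therefore descriptions. The 21 genes from Ctsl to Irx1 (64.4 to 72.0 Mb) had a median of 0.54 there, with 16 above the autosomal median, against -0.76 in Shh 1 and -0.89 in Shh 2. All 21 genes were higher in Shh 3 than in Shh 1, by a median of 1.43, and 20 were higher than in Shh 2, by a median of 1.47. Nsun2, an RNA methyltransferase named here after its values were seen, had signals of 8.78, 8.29 and 10.44 in Shh 1, 2 and 3. Irx1, a homeobox gene at the end of the stretch, read 6.55 in Shh 3, within the 6.34, 6.27 and 6.95 of the GFP-positive arrays, and 3.90 and 4.28 in Shh 1 and 2. Its neighbour Irx2, after the stretch, read 6.89, 6.93 and 6.65, below the 7.86, 7.71 and 7.70 of the GFP-positive arrays in all 3. In the rest of the interval, 188 genes from Faf2 on, the 3 arrays differed from each other by medians of -0.09, 0.06 and 0.11.

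**Figure D4:**
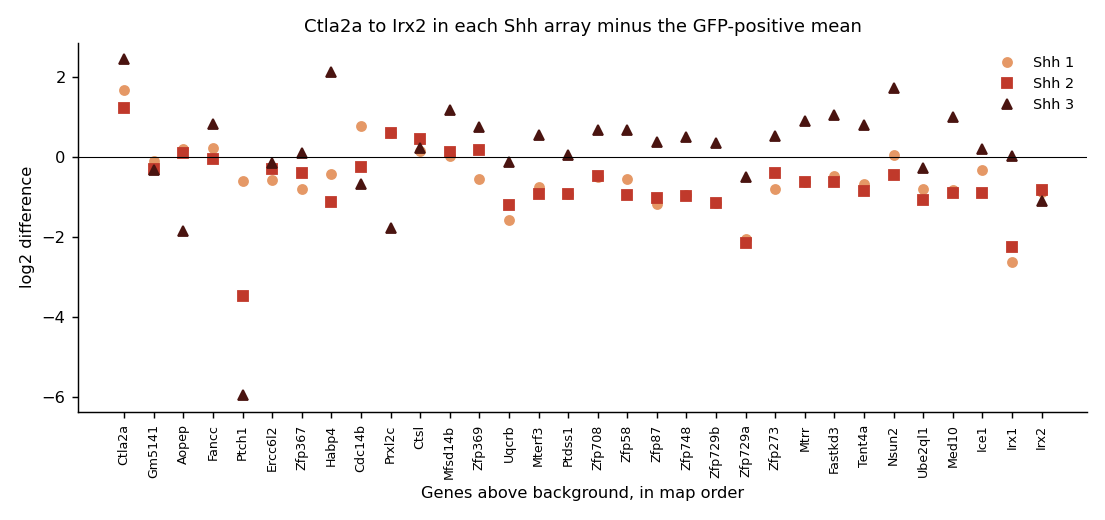
Log2 difference from the GFP-positive mean of each gene above background from Ctla2a to Irx2, in map order, for Shh 1, 2 and 3. Ptch1 reaches -5.94 in Shh 3 and -3.47 in Shh 2, and from Mterf3 to Irx1 the Shh 3 points lie above those of Shh 1 and 2.

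Inside the interval the shift was broad. All 3 Shh arrays were below all 3 GFP-positive arrays for 157 of the 226 genes (69.5%) and above them for 7, where over all 10096 genes above background the shares were 17.6% below and 31.3% above. Outside it on chromosome 13 the counts were 15 and 42 of 141 genes. In section 4, 79 of 100 genes were below and 0 above. The middle of the distribution inside ran from -0.95 to -0.37, the quartiles around the median of -0.66. By level in the GFP-positive arrays, the low one of 3 bins of these genes had a median of -0.47, the middle one -0.71 and the high one -0.72. Since the contrast chose the chromosome, these counts are descriptions.

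The largest differences of the Shh tumours did not all lie in the interval. Tfap2a, a transcription factor of early neural and crest cells, lies before it and read 3.46, 3.65 and 3.77 in the Shh arrays against 7.70, 7.97 and 8.64. Hecw1, a ubiquitin ligase near the start of the chromosome, read 3.62, 3.41 and 3.65 against 6.77, 6.40 and 6.51. Both were below background in every Shh array. Inside the interval, Map1b, a microtubule protein of growing axons, read 9.81, 9.65 and 10.03 against 12.48, 12.36 and 12.50. Vcan, the matrix proteoglycan versican, read 7.91, 8.07 and 7.45 against 9.80, 10.02 and 9.89. Cenpk, a kinetochore protein, read 6.78, 7.47 and 7.94 against 9.24, 9.39 and 9.04. None of these 5 genes overlapped between the groups. 4833420G17Rik read 7.87, 4.23 and 9.05 against 9.80, 9.81 and 9.94, so its mean difference of -2.80 rests mainly on Shh 2.

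The genes with the largest higher readings lay before the interval, other than Cxcl14. Ly86, an immune gene, read 5.92, 7.29 and 7.45 in the Shh arrays against 3.77, 3.80 and 4.83, and Cd83, another, read 6.84, 6.76 and 6.77 against 3.80, 3.48 and 4.72. The 6 microglia and macrophage markers were higher in the same arrays, as given above, with 0 to 3 of them below background in a Shh array and 4 to 6 in a GFP-positive one. The part of those cells in these values was not tested. Nid1, a basement membrane protein, read 6.17, 7.36 and 7.76 against 4.41, 4.48 and 4.56, beside endothelial and mural markers 0.20 to 0.57 above the reference. Cxcl14, a chemokine, read 7.34, 5.55 and 8.30 against 4.61, 4.36 and 4.43. Foxf2, a forkhead factor, read 5.01, 8.0 and 4.15, with its mean raised mostly by Shh 2 and Shh 3 below background. Cd83, Nid1 and Cxcl14 were below background in all GFP-positive arrays, so their differences are against a reading at background.

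The replication-dependent histone genes, which supply chromatin in S phase, all lie before the interval. Of 12 measured, 8 were above background, and their median difference in the Shh arrays was 1.70. H2bc4 read 11.99, 11.72 and 12.55 against 9.87, 8.93 and 10.25. H4c9 read 7.30, 7.97 and 9.17 against 6.21, 5.35 and 6.22. H1f2 read 11.00, 10.97 and 12.07 against 9.18, 8.34 and 9.86. Each of the 3 was higher in all Shh than in all GFP-positive arrays. These genes have near-identical copies, so a reading may not belong to 1 gene.

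The gene lists were also read inside and outside the interval. Of the mitochondrial and housekeeping genes, 19 above background lay inside, with a median of -0.66, and all 19 were lower in the 3 Shh arrays than the GFP-positive mean. Over all genes of the interval 173 of 226 were lower in this way, and 2242 of 9369 on the other autosomes. Sdha, a subunit of succinate dehydrogenase, read 9.64, 9.57 and 9.52 against 10.19, 10.35 and 10.11. Ndufs6, of complex I, read 9.87, 9.73 and 9.84 against 10.48, 10.55 and 10.51, and neither gene overlapped between the groups. Of the cell cycle and DNA replication genes, 12 lay inside with a median of -0.71, 9 of them lower in all 3 arrays, while the 3 outside had a median of 0.01. Cdk7, the kinase that activates cyclin-dependent kinases, read 7.41, 7.08 and 7.73 against 8.17, 8.23 and 8.17. Msh3, a mismatch repair protein, read 6.34, 6.56 and 6.27 against 7.29, 7.46 and 7.18. The neuronal and glial genes had a median of -1.36 over 7 inside and -0.24 over 4 outside, and the developmental transcription factors -0.73 over 6 inside and -0.16 over 8 outside. The 10 signalling genes above background all lay inside, with a median of -0.38. Over all 367 genes the median of the Shh mean was -0.38.

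The comparisons without the Shh arrays did not choose the chromosome and were tested, with limma over all 15 arrays and Benjamini-Hochberg adjustment over 17097 genes. The model held the Shh arrays too, so their spread enters the SE of each gene. The comparisons share the GFP-positive arrays as controls. In GFP-negative against GFP-positive cells, 83 of the 659 genes rose and 55 fell, beside 13.8% and 12.6% of all genes. These counts include genes whose mean over the 15 arrays was below background but which can exceed it in 1 group. Leaving out GFP-positive 2 brought the fallen genes to 35. When each array was centred on its own median, which moves the difference of GFP-negative cells by -0.50, that of Shh and Myc primary tumours by -0.29 each and that of Myc secondary tumours by 0.04, the counts became 54 and 262, that is 17.1% of the calls higher in place of 60.1%. With cyclic loess they became 101 and 42, or 70.6% higher.

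The genes with the largest changes in GFP-negative cells were Ly86 and Cd83 upward and Nrn1 downward. Ly86 read 11.33, 12.52 and 11.67 in GFP-negative cells, a rise of 7.71 ± 0.62 (SE, n = 3 against 3, limma adjusted p = 2.25e-06). Cd83 read 10.69, 12.46 and 11.70, a rise of 7.61 ± 0.66. Nid1 rose by 6.67 ± 0.60, Id4, an inhibitor of differentiation, by 5.49 ± 0.83, and F13a1, a coagulation factor chain made by macrophages, by 5.10 ± 0.34. Nrn1, neuritin, a protein of neurite growth, read 3.43, 3.77 and 3.93 against 10.98, 11.09 and 10.92, and fell by 7.28 ± 0.61 (limma adjusted p = 2.77e-06). Diras2, a Ras-like GTPase, Map1b, Ryr2, a calcium channel, and Gprin1, a neurite protein, fell by 2.92 ± 0.64, 2.79 ± 0.15, 2.69 ± 0.30 and 2.38 ± 0.27. These 10 calls held under each alternative run. The microglia and macrophage markers were 5.92 to 7.10 higher in the same cells, with 0 of the 6 below background, and the astroglia markers 3.61 to 4.88 higher, with 0 of the 6 below background. The endothelial and mural markers were 2.09 to 3.46 higher. Their part in these values was not tested. Cd83, Nid1 and F13a1 were below background in all 3 GFP-positive arrays and Nrn1 in all 3 GFP-negative arrays, so these differences are against a reading at background.

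Among the listed genes in this comparison, Gli3 read 8.68, 8.25 and 8.24 in GFP-negative cells against 6.32, 6.33 and 6.29, a rise of 2.08 ± 0.27 (limma adjusted p = 0.00011), while Ptch1 differed by 0.25 ± 0.89 and did not pass. The SE of Ptch1 pools the spread within all 5 groups, and its Shh arrays read 9.90, 7.03 and 4.56. Its missing call therefore cannot tell whether the sorted cells differ. Of 16 signalling genes 9 rose and 1 fell, with the interleukin 6 receptor subunit Il6st up by 1.95 ± 0.29 and the kinase Map3k1 down, at -2.13 ± 0.42. Of 22 developmental transcription factors 7 rose and 1 fell, with Msx2 up by 3.89 ± 0.19, from below background in all GFP-positive arrays, and Neurog1 by 2.41 ± 0.18. After centring, 5 of these factors rose and 6 fell. Of 23 mitochondrial and housekeeping genes none rose and 7 fell, whereas with cyclic loess 2 rose and 3 fell. Of 18 cell cycle genes 2 rose and 4 fell, of 17 neuronal and glial genes 3 rose and 2 fell, and of 12 histone genes 1 fell. Of all 17097 genes, 13.8% rose and 12.6% fell in this comparison, and no list was tested against these shares. After centring, 11 cell cycle genes and 16 mitochondrial and housekeeping genes fell. The list medians were 1.34 for signalling, 0.52 for the factors, -0.17 for the mitochondrial and housekeeping genes and -0.29 for the cell cycle genes, beside -0.03 over all 659 genes.

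In Myc primary tumours against GFP-positive cells, 89 of the 659 genes rose and 56 fell, beside 14.5% and 10.3% of all genes. Leaving out GFP-positive 1 brought the fallen genes to 37, and centring gave 51 and 91, that is 35.9% of the calls higher in place of 61.4%. Ell2, an elongation factor of RNA polymerase II, read 7.64, 7.43 and 8.47 against 3.56, 3.49 and 3.96 and rose by 4.17 ± 0.64 (limma adjusted p = 0.000434). Nid1 rose by 3.28 ± 0.60, Ctla2a, a protease inhibitor, by 3.22 ± 0.47, Ly86 by 2.96 ± 0.62 and Mef2c, a transcription factor of neurons and muscle, by 2.54 ± 0.62. Tfap2a, below background in these tumours as in the Shh tumours, fell by 4.48 ± 0.28 (limma adjusted p = 5.98e-07). Diras2 fell by 4.46 ± 0.64, the long noncoding gene Gm17750 by 3.89 ± 0.71, Cplx2, a synaptic complexin, by 3.23 ± 0.43 and Ube2ql1, a ubiquitin-conjugating enzyme, by 3.01 ± 0.32. The microglia and macrophage markers were 1.73 to 2.63 above the reference here, with 0 to 2 of the 6 below background. Markers of other cells differed between the 3 arrays. Those of the oligodendrocyte lineage ran from 0.26 to 4.72 above the reference, of fibroblasts and meninges from 0.67 to 3.52, of endothelial and mural cells from 0.29 to 2.21, each with Myc primary 3 the highest, and of astroglia from -0.02 to 1.83. The granule neuron progenitor markers were lower, from -4.18 to -3.02. The part of these cells in the changes was not tested. Without Myc primary 3, Nid1 rose by 2.39, and both it and the other 9 genes named here kept their calls. Ell2 and Nid1 were below background in all GFP-positive arrays.

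In Myc secondary tumours, 104 of the 659 genes rose and 66 fell, beside 13.5% and 11.8% of all genes. Ell2 read 6.12, 8.79 and 8.94 and rose by 4.28 ± 0.64 (limma adjusted p = 0.0003). Ly86 rose by 3.80 ± 0.62, beside microglia and macrophage markers 1.77 to 3.55 above the reference, whose part was not tested. Ctla2a rose by 2.92 ± 0.47, Esm1, an endothelial proteoglycan, by 2.82 ± 0.61 and Tgfbi, a matrix protein, by 2.80 ± 0.61. Gm17750 read 3.12, 3.45 and 3.10 against 9.69, 9.49 and 9.68 and fell by 6.40 ± 0.71 (limma adjusted p = 3.11e-05). Diras2, Vcan, Tfap2a and Ube2ql1 fell by 5.42 ± 0.64, 4.58 ± 0.54, 4.19 ± 0.28 and 4.06 ± 0.32. The endothelial and mural markers were 0.65 to 0.97 above the reference in these arrays, with 2 to 3 of the 6 below background, and the granule neuron progenitor markers were lower, from -5.08 to -3.41. Their part in these changes was not tested. Ell2, Esm1 and Tgfbi were below background in all GFP-positive arrays, and Gm17750, Diras2, Tfap2a and Ube2ql1 in all Myc secondary arrays.

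The gene lists were counted in both Myc comparisons, which share their controls. Of 23 mitochondrial and housekeeping genes, 10 rose and 1 fell in primary and 13 rose and 1 fell in secondary tumours. After centring, 3 rose and 1 fell in primary and 8 rose and 1 fell in secondary tumours. Mrps30, of the mitochondrial ribosome, rose by 1.15 ± 0.12 in secondary tumours and Ndufs6 by 0.77 ± 0.12. Hmgcs1 was the gene that fell, by 1.65 ± 0.30 and 1.10 ± 0.30. Of 12 histone genes, 5 rose and 1 fell in primary and 6 rose and 1 fell in secondary tumours, with H4c9 up by 1.99 ± 0.49 and 2.26 ± 0.49. After centring, 2 rose and 1 fell in primary tumours. Of 17 neuronal and glial genes none rose in either, and 5 fell in primary and 8 in secondary tumours. Of 22 developmental transcription factors, 1 rose in each, and 7 and 8 fell. Of 18 cell cycle genes, 3 rose and 1 fell in primary (1 and 1 after centring) and 6 rose in secondary tumours, among them Cdk7, by 1.04 ± 0.19, and Rad17, of the DNA damage checkpoint, by 0.99 ± 0.19. Cdk7 (100.7 Mb) and Rad17 (100.6 Mb) both lie in the stretch from Fam169a to Slc30a5, raised in these tumours and described below. Of 16 signalling genes, 4 rose and 1 fell in primary tumours, while 1 rose and 2 fell there after centring. In secondary tumours 2 of them rose and 3 fell. Gli3 fell by 1.44 ± 0.27 in secondary tumours and differed by -0.44 ± 0.27 in primary ones, where it did not pass. The list medians in secondary tumours were 0.87 for the histones, 0.38 for the cell cycle, 0.36 for the mitochondrial and housekeeping and -0.60 for the neuronal and glial genes, beside 0.09 over all 659 genes. In primary tumours they were 0.96, 0.22, 0.34 and -0.36 in the same order, beside 0.04. Of all 17097 genes, 14.5% rose and 10.3% fell in primary tumours, and 13.5% rose and 11.8% fell in secondary ones. No list was tested against these shares.

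Secondary differed from primary Myc tumours at few genes of the chromosome. By limma 3 of the 659 genes fell and none rose, beside 0.462% and 0.257% of all genes, while 2137 genes of the 17097 had an unadjusted p under 0.05. Irx2 read 3.81, 3.73 and 4.54 in secondary against 5.51, 7.62 and 7.20 in primary tumours and fell by 2.75 ± 0.43 (limma adjusted p = 0.0173). 2210016F16Rik fell by 2.44 ± 0.34 and Gpx8, a peroxidase of the endoplasmic reticulum, by 2.09 ± 0.39 (limma adjusted p = 0.0107 and 0.0358). The 3 genes are inside the interval of the Shh arrays, as are 226 of the 367 chromosome 13 genes above background. With the 6 arrays of these groups alone none passed, with limma adjusted p of 0.254 for Irx2, 0.204 for 2210016F16Rik and 0.281 for Gpx8. Irx2 lost its call without Myc primary 3 (adjusted p = 0.0602) or Myc secondary 2 (adjusted p = 0.0759). Gpx8 lost its call in 12 of the settings run, among them without Myc primary 2 or 3 (adjusted p = 0.0736 and 0.113) and without Myc secondary 1, 2 or 3 (adjusted p = 0.0709, 0.106 and 0.0823). Leaving out Myc primary 1 gave 2 risen and 8 fallen genes. Leaving out Myc primary 3 or Myc secondary 2 gave 1 fallen gene each. After centring 10 genes rose and 4 fell.

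Elsewhere on the chromosome the Myc and GFP-negative arrays had shorter stretches of their own, marked off after their values were seen and not tested. The 25 genes from Fam169a to Slc30a5 (97.1 to 100.8 Mb) had medians of 0.89, 0.95 and 0.85 in the Myc secondary arrays and 0.52, 0.64 and 0.48 in the Myc primary arrays. They read -0.58, -0.66 and -0.59 in the Shh arrays and -0.06, -0.20 and -0.31 in the GFP-negative arrays. Utp15, which acts in ribosome assembly, read 8.93, 9.23 and 9.41 in Myc primary and 9.58, 9.34 and 9.31 in Myc secondary tumours against 7.89, 7.52 and 7.85. Map1b, in the same stretch, was lower in all 6 Myc arrays. The first 8 genes of the chromosome, from Gdi2 to Pfkp (3.5 to 6.6 Mb), had medians of 0.64 to 1.86 in the 6 Myc arrays and of 0.40, 0.45 and 0.58 in the Shh arrays. Pfkp, the platelet form of phosphofructokinase, read 9.34, 9.86 and 9.59 in Myc primary and 9.26, 9.40 and 9.22 in Myc secondary tumours against 7.25, 7.10 and 7.56, while Klf6, a zinc finger factor between them, was lower in all 6. Utp15, Pfkp and Klf6 were picked out after their values were seen. In the 3 GFP-negative arrays the best interval ended at Atxn1 (45.5 Mb) each time and was raised, at 0.47, 0.27 and 0.06 where the autosomal medians were 0.02, -0.10 and -0.40. That of Myc primary 3 ran from Tasor2 to Sptlc1 (53.3 Mb), with a median of 0.38 inside and 0.08 outside. That of Myc secondary 1 ran from H3c11 to Higd2a (54.6 Mb), with 0.48 inside and 0.04 outside.

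**Figure D5:**
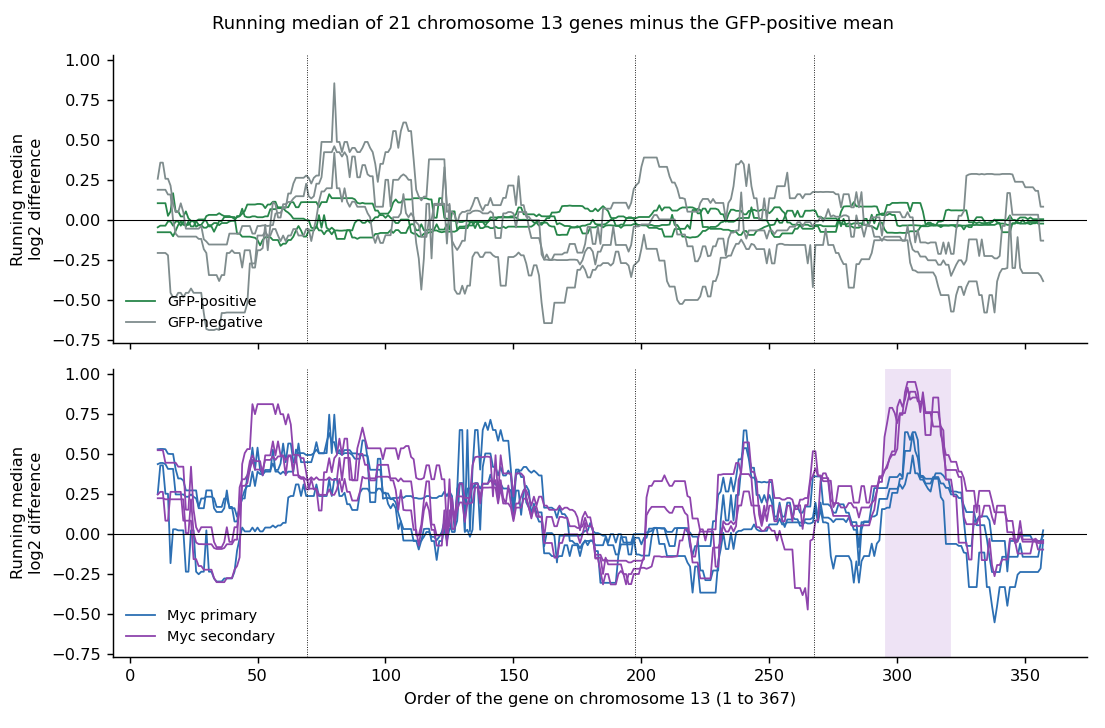
Running median of 21 chromosome 13 genes above background in map order, as log2 difference from the GFP-positive mean, for the sorted cells (upper) and the Myc tumours (lower), with Fam169a to Slc30a5 shaded and the sections parted by dotted lines. The Myc secondary arrays peak in the shaded stretch, whose medians were 0.85 to 0.95, and the best interval of any of the 12 arrays took away at most 4.46% of its deviation.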

How the data were processed

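RNA of 15 samples was read on one-colour Affymetrix HT_MG-430_PM arrays. The deposited values were log2 signals for 45141 probe sets, which the authors made by RMA in Partek 6.5, per the submitters' processing notes. RMA corrects background and normalizes between arrays, so a shift shared by all genes of an array is removed in part. Further settings are not given in the sources used here. The values keep no counts, and 3 arrays a group limit the precision.

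Probe sets were named from the platform annotation and placed on GRCm38.p6 by RefSeq. Of these, 28898 had 1 gene, 551 several and 15692 none. Of the named genes' probe sets 57 could not be placed. limma 3.58.1 (R 4.3.3) fitted the 5 groups in one model, with Benjamini-Hochberg adjustment over 17097 genes, a threshold of 0.05 and 10 residual degrees of freedom. Named genes were the ends of the interval and their neighbours, members of 7 lists, and the 8 largest differences each way in Shh and the 5 largest called changes each way, with no overlap between arrays, in the other comparisons. Others are said where they stand to be picked out later. Members and lists were chosen with earlier results of these data known. Alternatives were cyclic loess, centring, other probe set and background rules, other references and models, and each array left out. Scripts were tested on simulated data.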

Additional observations from a re-analysis of the deposited data

Results flagged for a closer look

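Over the whole of chromosome 13 the Shh arrays all lay below the GFP-positive reference, with a mean of array medians of -0.40, while all Myc primary arrays lay above it, with 0.14, and so did all Myc secondary arrays, with 0.20. Myc primary 1 was above it by only 0.02, less than the autosomal median of 0.05 of that array. In section 2 of 4 the mean was -0.18 in the Shh arrays, 0.14 in the Myc primary and 0.17 in the Myc secondary arrays, again with every array of a group on its own side of 0. The Shh mean there rests mainly on Shh 1, at -0.49, since Shh 2 and Shh 3 read only -0.02 each. In section 3 it was -0.58 in the Shh and 0.057 in the Myc primary arrays, and in section 4 -0.70 in the Shh and 0.29 in the Myc secondary arrays. These differences drew attention because all arrays of the groups lay on opposite sides of the reference. In section 3, however, Myc primary 1, 2 and 3 read 0.02, 0.09 and 0.07. Each lay below the autosomal median of its own array, at 0.05, 0.17 and 0.13, as the Shh arrays lay below theirs. The difference between the groups was not tested, and they share the GFP-positive controls.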

How the results depend on the processing

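Of 109 alternative values of the chromosome 13 medians 91 moved by less than 1 SD of the replicates. Leaving out each array in turn gave 0.14 to 0.25 in section 1 of the Shh arrays, -0.26 to -0.02 in section 2, -0.65 to -0.53 in section 3, -0.74 to -0.66 in section 4 and -0.47 to -0.34 over the whole. Centring gave -0.12, -0.47, -0.88 and -0.99 for sections 1 to 4 and -0.69 for the whole. Without the background filter sections 1, 3 and 4 gave 0.012, -0.24 and -0.36 and the whole -0.14. With the GFP-negative reference sections 1 and 4 gave 0.34 and -0.55. The interval began at 51.1 Mb, at 42.1 Mb in Shh 1 by itself and at 51.1 to 53.3 Mb with an array left out. It ended at a gene starting at 119.765 Mb with any array left out, and at 119.69 Mb without the filter, with the GFP-negative reference or in Shh 1 by itself. Leaving out an array gave 61 to 93 risen and 35 to 67 fallen genes in GFP-negative cells, 65 to 109 and 37 to 67 in Myc primary tumours, 71 to 110 and 47 to 71 in Myc secondary tumours, and 0 to 3 and 1 to 8 between the Myc tumours. Centring gave 54 and 262 in GFP-negative cells, 51 and 91 in Myc primary tumours, and 10 risen between the Myc tumours, where cyclic loess gave 2, the mean of the probe sets 8 and the fit on 6 arrays 0 fallen. Beside that 0, limma on all arrays had 2137 genes at an unadjusted p under 0.05. Leaving out 3 arrays that correlate least with their group, chosen after seeing the data as were the stretches, gave 4 risen and 1 fallen there. Of 3340 alternative values of named calls, 296 missed the threshold and none changed direction. The cause of these shifts was not tested. No paired analysis was possible because the labels give no shared replicate numbers. Of the 659 genes 292 had a mean at or below background, so that at least 1 group mean of each is there too.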
